A study of Mus musculus with 12 samples.

Results

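Regulatory T cells (Tregs) that carried the 1G12 tether and received no IL-2 were compared with Tregs that carried the empty vector and were kept in soluble IL-2. The comparison used 6 of the 12 libraries of the series, 3 labelled 1G12t and 3 labelled EV+IL-2, and covered the 15043 genes, of 55228 listed, whose TPM, a level scaled to transcript length and to the library total, averaged at least 1 over the 12 libraries. The 1G12t cells carried a retroviral construct in which 1G12, an orthogonal (ortho) IL-2 made to fit an engineered receptor chain, is joined through a linker to that chain, orthoIL-2Rβ, followed by the reporter Thy1.1. The EV cells carried the same vector with the reporter alone. All cells came from the lymph nodes of 16 NOD mice with a Foxp3-GFP reporter, pooled as CD4+ cells and divided into 3 parts, and the GFP+CD25+ cells of each part were sorted and activated on their own. Each part was divided on day 2 among the constructs. The 1G12t cells were washed free of IL-2 on day 4 and grown for 5 more days, while the EV+IL-2 cells stayed in 100 IU/ml mouse IL-2, and Thy1.1+ cells of both groups were sorted on day 9. EV cells washed in the same way (EV no IL-2, 3 libraries) served as the reference without either source of IL-2. The 3 replicates of a group were separate cultures of one pool of mice, so the p-values measure the spread between cultures and not between animals. The 1G12t and EV+IL-2 groups differed both in the construct and in the IL-2 of the medium, and these cannot be told apart in this comparison alone.

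IL-2 signals through a receptor of CD25 (Il2ra), CD122 (Il2rb) and the common γ chain (Il2rg). The β and γ chains bring JAK1 and JAK3 together, STAT5 is phosphorylated and enters the nucleus, and the PI3K and mTOR branch supports growth. Tregs make almost no IL-2 of their own and depend on IL-2 from other cells for survival, for high CD25 and for division after activation. STAT5 also induces its own brakes, CIS (Cish) and the SOCS proteins.

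TPM keep no record of read number, so read depth is unknown and the only error given is the spread between libraries. Levels of genes in single libraries below are scaled TPM, the deposited TPM divided by a median-of-ratios factor per library. Median TPM, average TPM and shares of all TPM are of TPM as deposited. Changes are log2 fold changes of 1G12t minus EV+IL-2 on the scale of log2(scaled TPM + 1), where the TPM were divided by a median-of-ratios factor per library, and they understate the change of genes with low TPM. A gene was called at a Benjamini-Hochberg adjusted p under 0.05 over all 15043 genes in limma, and brackets of a change give its 95% confidence interval. The gene lists below were written with earlier results of these data known, so their shares are descriptive and are no independent support. The libraries themselves differed between the groups. The 1G12t libraries had 42088 to 43285 genes above 0 and the EV+IL-2 libraries 30393 to 36239, and the median TPM over all listed genes was 0.34 to 0.41 and 0.03 to 0.07. For 8787 protein-coding genes that averaged at least 5 TPM, each library was compared with the mean of the other 2 of its group. Genes were counted where the library lay more than 1 log2 unit from that mean and the other 2 lay within 0.5 of each other. There were 71 in 1G12t replicate 3, 78 in 1G12t replicate 2 and 102 in EV+IL-2 replicate 2, against 3 to 6 in the other 3 libraries. The summed scaled TPM of 8 markers of CD4 T cells and Tregs was 3710 to 3760 in 1G12t and 3670 to 3790 in EV+IL-2. Summed markers of B cells (16.3 to 28.5 against 15 to 18), of myeloid cells (443 to 541 against 507 to 555) and of CD8 T and NK cells (4.15 to 5.06 against 4.71 to 5.83) overlapped between the groups. Cst3 held most of the myeloid sum, and Cd79b and Cd74 most of the B cell sum. Some low markers were higher in 1G12t without overlap. S100a9 was at 0.965, 0.53 and 0.778 against 0.201, 0 and 0.157. Ms4a1 was at 0.668, 0.428 and 0.375 against 0, 0.0409 and 0.0689. Others, such as Itgam and Ebf1, overlapped. The part that the larger number of genes above 0 in 1G12t has in this was not tested. S100a8, a myeloid marker, and Klra8, an NK cell marker, were listed at 0 in all EV+IL-2 libraries. The sum of 13 helper T cell cytokines was 19.9 to 39.4 against 112 to 121, and Tnf was the only one of them to average at least 1 TPM.

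1G12t Tregs differed widely from EV+IL-2 Tregs. In limma, 3099 genes were called (20.6%), of which 1458 were higher (9.69%) and 1641 lower (10.9%) in 1G12t. The threshold used by the study, a log2 fold change beyond 0.25 at an unadjusted p under 0.01, gave 3054 genes (20.3%), 1435 higher and 1619 lower. The genes that fell were abundant, with a median TPM of 29.55, and 103 of them changed by more than 2 log2 units. Of them 1449 (88.3%) coded for protein, against 77% of the genes that rose and 73.5% of all genes tested. The genes that rose were low in abundance, with a median TPM of 4.684 against 13.46 for all genes tested, and 48 of them changed by more than 2 log2 units. The balance of the directions depended on this low end and on the scaling. Higher genes were 47% of the calls, 61.3% with TPM as deposited (2011 higher and 1270 lower), 34.2% among genes with a TPM of at least 5 (659 and 1267) and 87.4% with no filter (12969 and 1873). The part that the larger number of genes above 0 in the 1G12t libraries has in this was not tested. TPM as deposited moved the median change of all genes from 0.02 to 0.11. The 3 libraries of each group did not overlap for 43.2% of genes.

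**Figure D1:**
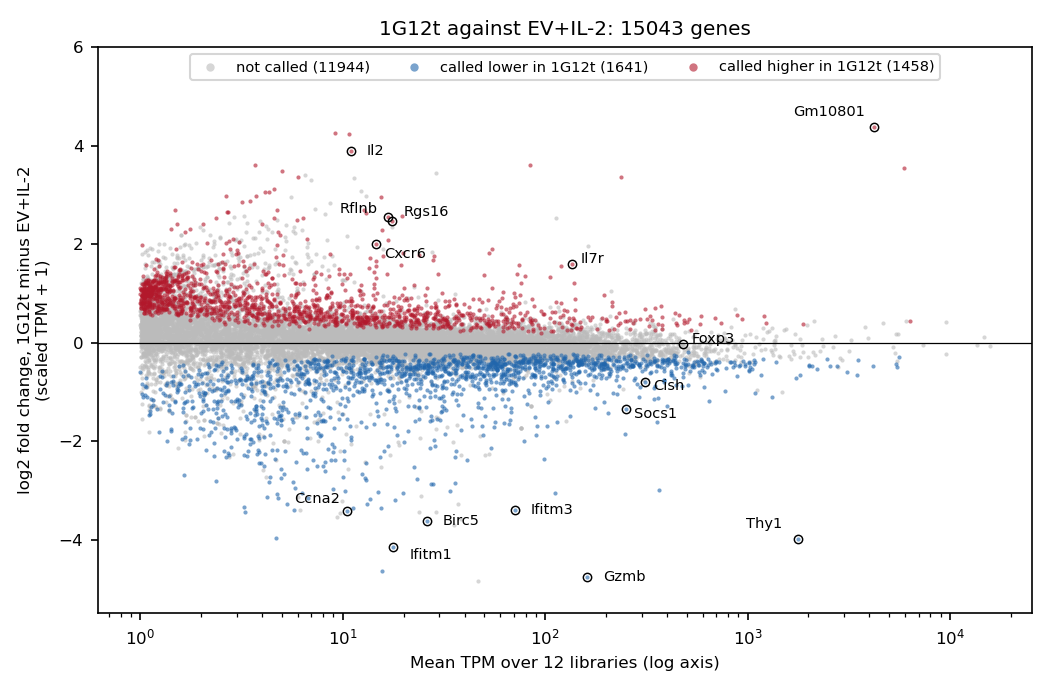
The log2 fold change of 1G12t minus EV+IL-2 is plotted for 15043 genes against the mean TPM over 12 libraries on a log axis, with called genes in blue (1641 lower) and red (1458 higher). Red points crowd at the left, near a TPM of 1, while the blue points spread across all levels down to Gzmb at −4.75.

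The genes of the construct were read first, because they check the labels. Il2, the cytokine that is part of the tether, was at 24.9, 16.9 and 12.9 TPM in the 1G12t libraries and at 0.181, 0.317 and 0.256 in EV+IL-2. All 3 tethered libraries lay far above every EV library, with a log2 fold change of 3.9 (3.39 to 4.4) and an adjusted p of 3.1e-06. The reads of ortho and native Il2 share one symbol and cannot be told apart. Il2rb, whose ortho form is the other part of the tether, was at 431, 363 and 387 in 1G12t, at 459.6, 472 and 428 in EV+IL-2 and at 289, 259 and 249.8 in EV no IL-2. The 1G12t and EV+IL-2 libraries overlapped (−0.21, 95% interval −0.41 to 0.0022, adjusted p = 0.15), and both lay above EV no IL-2. The difference of Il2rb between 1G12t and EV no IL-2 was not called here, while the study lists it as upregulated by its own count test. Thy1, which holds the reads of the Thy1.1 reporter and of the cells' own Thy1, was at 261, 182 and 185 in 1G12t and at 3266, 3477 and 3111 in EV+IL-2. It was 15.7-fold lower with the tether, while EV no IL-2, with 3475, 3191 and 3193, was as high as EV+IL-2.

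Most receptor and signaling genes were not called. Of 19 genes of the IL-2 receptor, the JAKs and the STATs, 4 rose (21.1%, against 9.69% of all genes) and 2 fell. The share that fell, 10.5%, was near the 10.9% of all genes. The 4 that rose were Il2, which the construct carries, Il7r, Stat5a and Stat5b. The median change was −0.0023 (0.13 under quantile normalization). Il2ra, the high-affinity chain that STAT5 itself induces, was at 434, 396 and 309.7 in 1G12t and at 714, 732 and 654 in EV+IL-2, and the groups did not overlap (−0.89, 95% interval −1.14 to −0.64, adjusted p = 0.00041). EV no IL-2 lay at 402, 434 and 400.2, in the range of the tethered cells. Il7r, the IL-7 receptor chain that IL-2 represses, moved the other way, with 163, 181 and 217 in 1G12t and 63.5, 59.7 and 58.6 in EV+IL-2 (1.6, 95% interval 1.24 to 1.96, adjusted p = 8.2e-05). Stat5a rose by 0.67 (adjusted p = 0.0053) and Stat5b by 0.62 (adjusted p = 0.002), both being the factors that carry the IL-2 signal. Il2rg did not pass, at 1999.6, 1867 and 1824 against 2294, 2352 and 1885 (−0.19, 95% interval −0.44 to 0.052). Jak1, the kinase bound to the β chain, was at 325, 352 and 332 against 250.5, 269.99 and 245, without overlap. Its adjusted p was 0.053, and 0.027 in the fit blocked by replicate number. It passed in 7 of 16 alternatives, whose adjusted p ran from 0.0043 to 0.14 over all 16.

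Several brakes on IL-2 signaling were lower in 1G12t. Of 16 feedback regulators tested, 6 fell (37.5%, where 10.9% of all genes fell), 0 rose and 10 did not pass, with a median change of −0.24 against 0.02 for all genes. Without EV+IL-2 replicate 1 or 2, 4 fell. The 6 were Socs1, Socs2, Socs3, Socs5, Cish and Ptpn1. Cish, which blocks STAT5 docking at the receptor, was at 252, 229 and 297 in 1G12t, at 461, 429.9 and 454 in EV+IL-2 and at 247, 241 and 234 in EV no IL-2. No tethered library reached an EV+IL-2 library, and the change was −0.79 (−1 to −0.59) with an adjusted p of 0.00021. Socs1, an inhibitor of the JAKs, was at 201, 163 and 153 against 453, 465 and 406 (−1.36, 95% interval −1.63 to −1.09, adjusted p = 4e-05). Socs2 was the most abundant of the family, at 576, 512 and 574 against 1116, 1128 and 1059 (−0.99, 95% interval −1.16 to −0.82, adjusted p = 1.6e-05). The EV no IL-2 libraries held 199, 192 and 155 TPM of Socs1 and 619, 616 and 568 of Socs2, levels close to those of 1G12t. Socs3 was at 113, 101 and 55.9 against 149, 168 and 142 (−0.81, 95% interval −1.3 to −0.33, adjusted p = 0.024). Replicate 3 was the lowest tethered library, and the call was lost without EV+IL-2 replicate 1 (adjusted p = 0.063) or 2 (0.087). Socs5 fell by 0.39 (adjusted p = 0.044, and 0.054 with the replicate block), a call that was also lost without any 1 of the 6 libraries (adjusted p up to 0.15). Socs4 (−0.3, 95% interval −0.72 to 0.12) and Socs7 (0.032, 95% interval −0.36 to 0.42) did not pass. Ptpn1, a phosphatase that acts on the JAKs, fell by 0.71 (adjusted p = 0.0028).

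STAT dimers bind the letters TTCNNNGAA, and Cish is the textbook gene with such letters in tandem. They are shown for Cish and, as the promoter of an IL-2 induced gene that fell, for Lta, with the matches in capitals. Both sequences are from RefSeq on GRCm38.p6. The Cish stretch is the first 20 bases of the RefSeq transcript at chr9:107296659-107296678 (plus strand), inside an annotated 5′ UTR. The Lta stretch is the 250 bases before the start, at chr17:35205352-35205601 (minus strand).
Cish: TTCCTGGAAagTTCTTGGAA
Lta: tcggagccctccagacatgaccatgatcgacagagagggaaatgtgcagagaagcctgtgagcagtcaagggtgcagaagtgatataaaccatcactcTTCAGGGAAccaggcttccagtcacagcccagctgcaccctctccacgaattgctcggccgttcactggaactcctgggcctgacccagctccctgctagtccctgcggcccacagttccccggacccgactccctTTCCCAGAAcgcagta
The first Cish match begins at base 1 and the second at base 12, and those of Lta begin 152 and 16 bases before the start. On either strand, windows from 250 bases before to 50 after the start held these letters for 780 of the 9334 tested genes with a window (8.36%), and in all windows for 9.55% of 27025 genes. They were found for 9 of 39 IL-2 induced genes (23.1%), 7 of them called lower, and for Cish and Socs3 among the 9 feedback regulators with a window. The interferon-stimulated genes held them as often, in 13 of 51 (25.5%). A match says only that the letters are there, and the strings counted here can share bases with each other.

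Of the 50 genes tested on the list of IL-2 induced genes, 25 fell (50%, where 10.9% of all genes fell). Another 2 rose and 23 did not pass, and the median change was −0.47. Without EV+IL-2 replicate 2, 17 fell and 1 rose. Lta, the cytokine lymphotoxin α, was at 156, 138 and 136 in 1G12t, at 517, 552 and 496 in EV+IL-2 and at 144, 150.2 and 136 in EV no IL-2. The EV+IL-2 libraries stood alone, more than 3-fold above both others (−1.86, 95% interval −2.12 to −1.59, adjusted p = 5.8e-06). Osm, a cytokine of the IL-6 family and a classical STAT5 target, was at 65.3, 54.5 and 46.7 against 196, 183 and 166 (−1.7, 95% interval −1.97 to −1.43, adjusted p = 1e-05). Lif, of the same family, was at 1.87, 1.05 and 0.888 against 10.6, 9.87 and 9.7 (−2.31, 95% interval −2.74 to −1.88, adjusted p = 2.6e-05). Bcl2, which protects T cells from mitochondrial death, was at 131, 145 and 193 against 199, 211 and 274. The groups just failed to overlap, and the change of −0.54 (−0.88 to −0.21) had an adjusted p of 0.028 that was lost in 7 of 16 alternatives (up to 0.14), among them the fits without EV+IL-2 replicate 2 or 3 and without 1G12t replicate 1 or 2. Of the 2 that rose, Cd83, a surface glycoprotein of activated lymphocytes, changed most, at 15, 20.6 and 20.8 against 6.6, 6.32 and 4.72 (1.52, 95% interval 1.15 to 1.89, adjusted p = 0.00015).

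**Figure D2:**
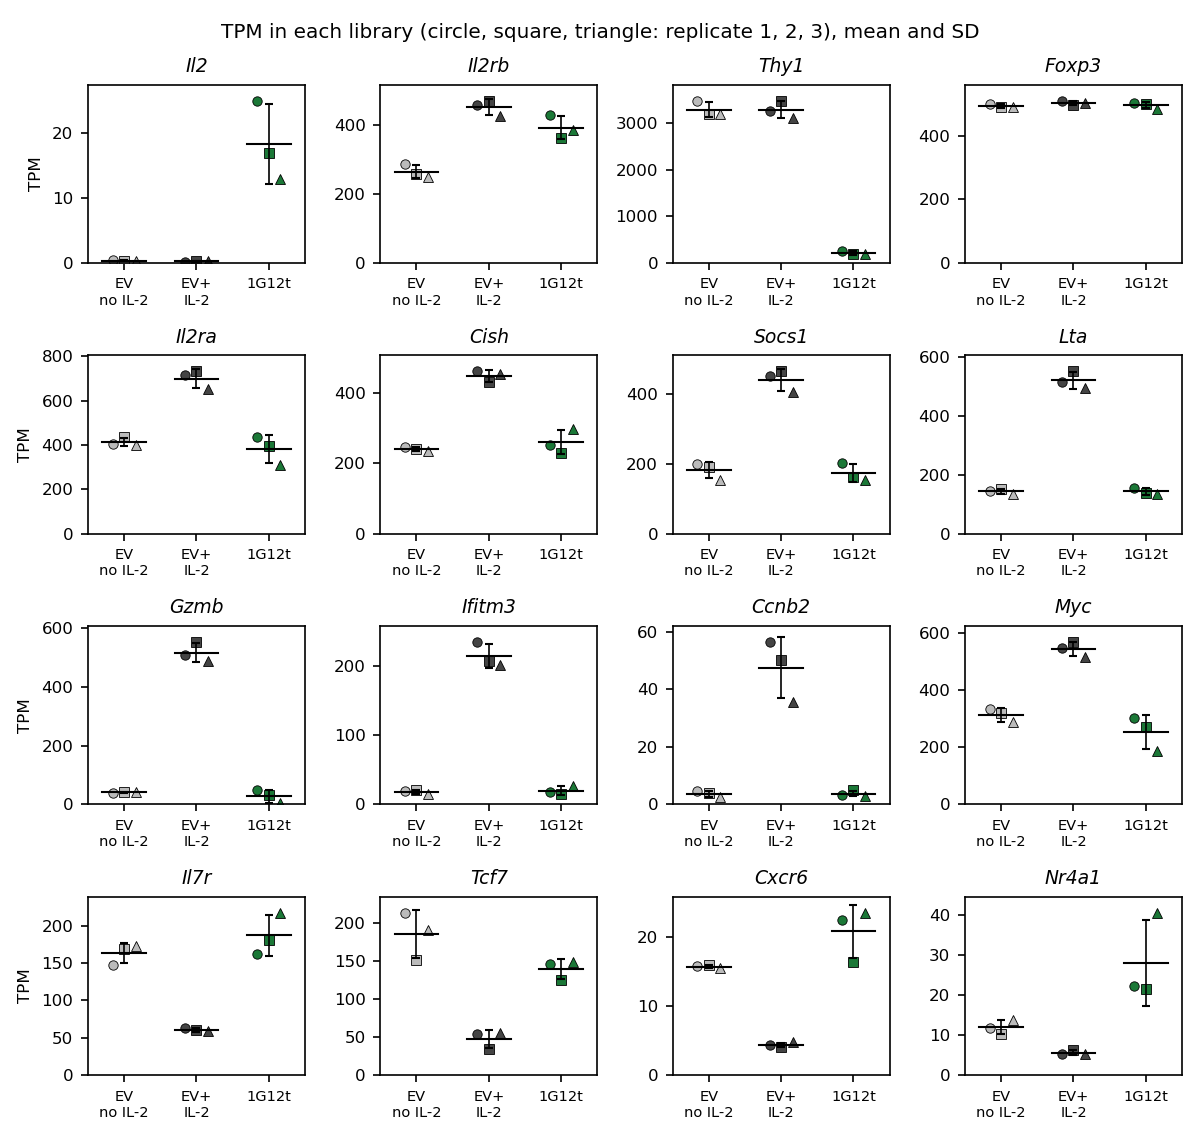
Scaled TPM of 16 genes is plotted for each library of EV no IL-2, EV+IL-2 and 1G12t, with the replicate by symbol and the mean and SD by bars. Cish, Socs1, Lta, Gzmb and Ccnb2 stand high in EV+IL-2 alone, Il7r, Tcf7 and Cxcr6 stand low there, Il2 is high in 1G12t alone and Foxp3 is level across the 9 libraries.

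Of 15 cytotoxic granule genes tested, 8 fell (53.3%, against 10.9% of all genes), 1 rose and 6 did not pass, with a median change of −0.41. Gzmb, granzyme B, had the most negative change of any protein-coding gene named by the rule, at 47.2, 32.9 and 3.33 in 1G12t and 509, 552 and 488 in EV+IL-2. All 3 tethered libraries lay far below every EV+IL-2 library, and replicate 3 was lower again than both others. The change of −4.75 (−6.23 to −3.27) (adjusted p = 0.00081) was −3.68 without that library (adjusted p = 2.1e-06), and EV no IL-2 lay at 37.2, 41 and 43.1. Gzmc, a granzyme from the same cluster, was at 8.34, 6.42 and 6.73 against 40.4, 36.9 and 32.4 (−2.2, adjusted p = 2.3e-05). Nkg7, a granule membrane protein, fell by 1.33 (adjusted p = 0.0031), Serpinb6b, a protease inhibitor, by 1.04 (0.00041) and Ctsc, the protease that matures granzymes, by 0.97 (0.0016). Fasl, the death ligand, rose by 0.73 (adjusted p = 0.0026), with 8.03, 7.62 and 7.03 in 1G12t against 4.21, 4.47 and 3.76.

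The cell division genes made up the broadest change. Of 76 genes of mitosis, 71 fell, 1 rose and 4 did not pass, with a median change of −1.85, where 10.9% of all genes fell. Of 53 genes of DNA replication, 41 fell and 0 rose (median −0.81), and of 25 G1 cyclins, E2Fs and CDK inhibitors 14 fell and 1 rose (median −0.59). The last median was −0.36 without 1G12t replicate 3 and −0.31 with a pseudocount of 5. Birc5, survivin, which guides the chromosomal passenger complex, was at 7.3, 6.16 and 3.99 in 1G12t, at 91.9, 82.5 and 69.3 in EV+IL-2 and at 7.48, 3.85 and 4.04 in EV no IL-2 (−3.62, 95% interval −4.28 to −2.95, adjusted p = 2.5e-05). Ccnb2, a mitotic cyclin, was at 3.29, 4.81 and 3.02 against 56.3, 50.1 and 35.6 (−3.35, 95% interval −3.82 to −2.89, adjusted p = 5.3e-06). Ccna2, the cyclin of S phase and G2, was at 2.42, 2.78 and 1.56 against 38, 33.4 and 29.5 (−3.42, adjusted p = 2.8e-06). In none of these did a tethered library come near the EV+IL-2 range, and the EV no IL-2 libraries were as low as 1G12t. Ube2c, the ubiquitin-conjugating enzyme of the anaphase-promoting complex, fell by 3.21 (adjusted p = 2.5e-05) and Spc24, a kinetochore subunit, fell by 3.18 (2.7e-05). Whether fewer cells were dividing or each held less of these RNAs cannot be told apart in bulk libraries.

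The S phase genes changed less than those of mitosis but in the same direction. Rrm2, the ribonucleotide reductase subunit that limits dNTP supply, was at 16, 13.2 and 10.1 against 110.3, 107 and 81.3 (−2.84, 95% interval −3.23 to −2.46, adjusted p = 4.4e-06). Cdc6, which loads the replicative helicase, was at 1.78, 1.7 and 0.998 against 17.1, 15.3 and 14.3 (−2.74, adjusted p = 2.3e-06). Clspn fell by 2.12, Gmnn by 2.02 and Tk1 by 1.87, with adjusted p of 0.0015, 4.4e-05 and 2.5e-05. These encode the checkpoint mediator claspin, the licensing inhibitor geminin and thymidine kinase. Among the G1 genes, E2f8 fell by 1.96, Ccne2 by 1.93, E2f7 by 1.74 and E2f1 by 1.58 (adjusted p of 4.3e-05, 1.8e-05, 9.8e-05 and 0.0012). Cdkn1a, the inhibitor p21, also fell, at 77.2, 70.9 and 139.6 against 258, 291 and 236 (−1.5, 95% interval −2.01 to −0.99, adjusted p = 0.0014). Cdkn1b, the inhibitor p27 of resting cells, was the 1 that rose, at 39.8, 38.8 and 54.3 against 26.9, 28.4 and 31 (0.59, adjusted p = 0.0094). Smc4, a condensin subunit, was the mitosis gene that rose, at 653, 713 and 673 against 482, 476 and 484 (0.5, 95% interval 0.34 to 0.66, adjusted p = 0.001).

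Mitotic genes are held silent in resting cells by the DREAM complex, which binds the cell-cycle homology element TTTGAA near the start, and are activated from CCAAT boxes upstream. The Ccnb2 promoter is shown because it has both, with TTTGAA and CCAAT in capitals. The first stretch is the 250 bases before the RefSeq start on GRCm38.p6, chr9:70421555-70421804 (minus strand), and the second the first 20 bases after it, chr9:70421535-70421554, with TTTGAA in capitals.
Ccnb2 before the start: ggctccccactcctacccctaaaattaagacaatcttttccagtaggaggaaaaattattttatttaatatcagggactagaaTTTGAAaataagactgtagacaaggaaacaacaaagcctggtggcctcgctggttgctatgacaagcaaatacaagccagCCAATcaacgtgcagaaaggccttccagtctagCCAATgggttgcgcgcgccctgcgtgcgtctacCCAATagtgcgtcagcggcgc
Ccnb2 after the start: ggtaTTTGAAtcgcggaccg
The CCAAT boxes begin 87, 54 and 21 bases before the start, spaced by 33 bases, and TTTGAA begins 167 bases before and 5 bases into the transcript. On either strand, TTTGAA was in the windows of 42 of the 63 mitosis genes with a window (66.7%), against 1357 of 9334 genes tested (14.5%) and 20.2% of genes over all windows. In 38 of the 42 it lay within 50 bases of the start, and in 375 of the 1357. Among the 60 mitosis genes with a window that were called lower the share was also 66.7%. CCAAT was in the windows of 45 of the 63 mitosis genes (71.4%) and of 43.5% of genes tested (41.1% over all windows). The windows of DNA replication genes held TTTGAA in 8 of 43 (18.6%).

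Interferon-stimulated genes were the next group with large single changes. Of 71 tested, 31 fell (43.7%, against 10.9% of all genes) and 3 rose (4.23%, below the 9.69% of all genes). The median change was −0.41. Ifitm1, Ifitm2 and Ifitm3, neighbouring genes for membrane proteins that restrict virus entry, led the list. Ifitm3 was at 17.6, 15.1 and 26.7 in 1G12t, at 235, 208 and 201 in EV+IL-2 and at 19, 20.1 and 15.2 in EV no IL-2 (−3.41, 95% interval −3.91 to −2.91, adjusted p = 7e-06). Ifitm1 was at 2.01, 1.23 and 6.06 against 71.9, 53.3 and 67.1 (−4.16, 95% interval −4.88 to −3.43, adjusted p = 1.8e-05). Ifitm2, the most abundant of the 3, was at 104, 83.6 and 259 against 1045, 1084 and 1025 (−3, 95% interval −3.73 to −2.26, adjusted p = 0.00017). In all 3, replicate 3 was the highest tethered library and still lay below every EV+IL-2 library, and without it the change of Ifitm2 was −3.49. Gbp4, a guanylate-binding protein, fell by 1.66 (adjusted p = 6.3e-06) and Isg20, an exonuclease, by 1.56 (0.00065). The 3 that rose were Ifi208 (0.91), Ifi209 (0.55) and Slfn8 (0.52), and each lost its call without replicate 2 or 3 of either group (adjusted p up to 0.075, 0.076 and 0.13). Slfn8 also lost it with the replicate block (adjusted p = 0.061). The letters of the interferon-stimulated response element, GAAA followed after any 2 bases by GAAA, were in the windows of 26 of 51 of these genes (51%) and of 9 of 22 that fell (40.9%), against 3.73% of genes tested and 3.99% over all windows.

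Genes of growth and biosynthesis fell by small amounts in many members. Of 82 cytoplasmic ribosomal proteins, 69 fell (84.1%, against 10.9% of all genes) and 0 rose, with a median change of −0.42. This number rested on the scaling and on single libraries, since it was 37 under quantile normalization, where the median was −0.21, 40 without EV+IL-2 replicate 3, 45 without 1G12t replicate 2 and 79 in a fit of the 6 libraries alone. Rps27l fell by 0.72 (adjusted p = 0.0019) and Rpl14 by 0.63 (0.005). Of 62 genes of ribosome biogenesis and Myc, 19 fell (30.6%, against 10.9% of all genes) and 1 rose (median −0.26), the latter called in no fit that left out 1 of the 6 libraries. Myc, the growth regulator, was at 302, 270.03 and 188 in 1G12t, at 545, 566 and 516 in EV+IL-2 and at 334, 318 and 286 in EV no IL-2. The groups did not overlap (−1.12, 95% interval −1.45 to −0.8, adjusted p = 0.00054). Its relative Mycn was at 0.774, 0.456 and 0.119 against 3.65, 2.88 and 2.33 (−1.46, adjusted p = 0.0019). Nhp2 and Dkc1, of the particle that pseudouridylates ribosomal RNA, fell by 0.78 (adjusted p = 0.0036) and 0.6 (0.0017).

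Metabolic lists were less even. Of 78 nuclear genes of the respiratory chain, 25 fell (32.1%, against 10.9% of all genes) and 0 rose. The median was −0.27, and −0.092 under quantile normalization. Cox5a was among those that fell (−0.57, adjusted p = 0.0071). The number that fell was 49 in a fit of the 6 libraries alone. Without a single library of the 6 it was 7 to 14. It was lowest without EV+IL-2 replicate 2, where 1061 of 15026 genes tested fell. Of 38 genes of cholesterol and fatty acid synthesis, 17 fell (44.7%) and 1 rose (2.63%), with a median of −0.31 and with 11 lower without EV+IL-2 replicate 2. Elovl6, a fatty acid elongase, was at 18.7, 14.9 and 17.9 against 83.4, 80.6 and 82.7 (−2.2, 95% interval −2.45 to −1.95, adjusted p = 2.3e-06), the largest change of the list. Fads2, a desaturase, fell by 1.32 (adjusted p = 0.0027), and Idi1 and Fdps, of sterol synthesis, by 1.15 and 0.98 (0.011 and 6e-04). Acss2, which makes acetyl-CoA from acetate, rose by 0.83 (adjusted p = 0.0016). Of 29 genes of amino acid supply and the ATF4 response, 12 fell (41.4%) and 0 rose. The largest falls were those of Nupr1 (−1.44), Gpt2 (−1.08), Sesn2 (−0.97) and the serine synthesis enzymes Psat1 (−0.94) and Phgdh (−0.84). Their adjusted p were 0.005, 0.0014, 0.0021, 0.00054 and 0.00035. Of 32 genes of nucleotide synthesis, 12 fell (37.5%) and 0 rose, with Tyms, thymidylate synthase, at 28.1, 23.9 and 26 against 93.4, 88.6 and 77 (−1.69, adjusted p = 2.5e-05). Glycolysis had 6 of 27 lower (22.2%, against 10.9% of all genes) and 2 higher (7.41%, below the 9.69% of all genes). Pgam1 (−0.58, adjusted p = 0.0028) had the largest fall. Ldha, lactate dehydrogenase, fell by 0.44 (adjusted p = 0.013, and 0.056 without EV+IL-2 replicate 1). Without that library 2 genes of glycolysis were called lower and 0 higher, and without EV+IL-2 replicate 2 or 1G12t replicate 2, 3 and 0. Of 33 proteasome subunits, 8 fell (24.2%, against 10.9% of all genes) and 0 rose, Psme2 (−0.49, adjusted p = 0.01) being the largest, and 3 fell without EV+IL-2 replicate 1 or 2 or 1G12t replicate 3. Of the 13 protein genes of the mitochondrial genome 2 fell (15.4%, against 10.9% of all genes). This number was 0 without EV+IL-2 replicate 1 or 3 and 4 without 1G12t replicate 1 or with the replicate block.

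**Figure D3:**
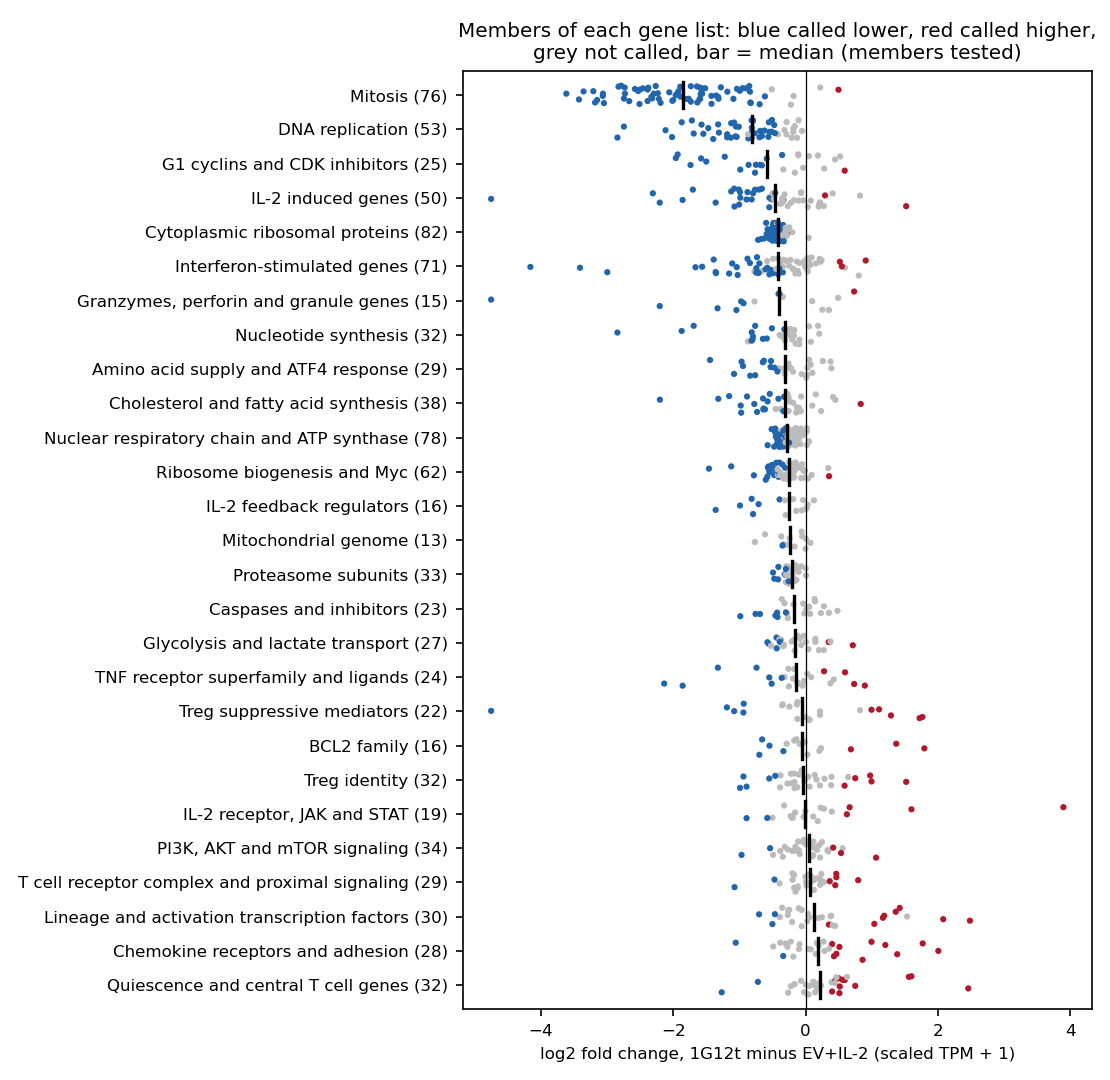
Each point is a gene of one of 27 lists, placed by its log2 fold change of 1G12t minus EV+IL-2, blue where called lower, red where called higher and grey where not called, with a bar at the list's median. Lists run from mitosis (median −1.85) at the top to quiescence genes (median 0.21) at the bottom, and the ribosomal proteins form a narrow cluster near −0.42.

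Genes of Treg identity moved in both directions. Of 32 genes, 5 fell, 5 rose and 22 did not pass. The share of 15.6% each way lay near the 10.9% and 9.69% of all genes, with a median change of −0.039 that turned to 0.063 with TPM as deposited. The number that fell was 3 without EV+IL-2 replicate 2. Foxp3, the lineage factor, was at 502, 500.5 and 484 in 1G12t, at 509.8, 496 and 501 in EV+IL-2 and at 501, 489.8 and 492 in EV no IL-2. The 9 libraries lay within one narrow range, and the change was −0.021 (−0.2 to 0.15), with 0.085 for TPM as deposited and 0.24 under quantile normalization, neither of them called. Ikzf2, Helios, was at 149.7, 178 and 296 against 197, 193 and 294 (−0.17, 95% interval −0.71 to 0.37). Ctla4 was at 198, 211 and 188 against 176, 166 and 169.5, without overlap but short of a call (0.22, 95% interval −0.029 to 0.47, adjusted p = 0.2). It passed in 1 of 16 alternatives, the fit of the 6 libraries alone (adjusted p = 0.048). Lrrc32, which encodes GARP and anchors latent TGF-β, was at 90.4, 100.2 and 81.6 against 176, 184 and 163 (−0.94, 95% interval −1.29 to −0.59, adjusted p = 0.0022). Tigit, an inhibitory receptor, was higher, at 35.3, 34.4 and 37.1 against 20.1, 16.9 and 15.3 (1, 95% interval 0.72 to 1.28, adjusted p = 0.00043). Plagl1, a zinc finger factor, rose by 0.98 from below 1 TPM in every EV+IL-2 library (adjusted p = 0.0017).

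Mediators of suppression split as well, with 5 of 22 lower and 5 higher (22.7% each way, against 10.9% and 9.69% of all genes). The median was −0.06, and it was 0.037 with TPM as deposited, −0.098 without 1G12t replicate 1 and −0.15 without 1G12t replicate 3. Besides Gzmb, Lgals1, galectin 1, was at 496, 449 and 408 against 1014, 1041 and 1023 (−1.19, 95% interval −1.45 to −0.93, adjusted p = 7.7e-05). Fgl2, a secreted fibrinogen-like protein, was at 11.7, 9.95 and 10.8 against 25.1, 25.5 and 21.4 (−1.08, adjusted p = 0.00043) and Lgals3 at 95.1, 72.6 and 56.9 against 154, 145 and 125 (−0.93, adjusted p = 0.0057). The genes that rose were Penk, Lag3, Itgb8, Pdcd1 and Tigit. Lag3, a checkpoint receptor, was at 23, 19.1 and 8.03 against 5.1, 4.14 and 2.85 (1.72, 95% interval 1.05 to 2.4, adjusted p = 0.0029), with its lowest tethered value in replicate 3. Pdcd1, the checkpoint receptor PD-1, was at 58.7, 62.3 and 67.4 against 32, 28.1 and 25.7 (1.11, 95% interval 0.91 to 1.31, adjusted p = 2.2e-05). Penk, the enkephalin precursor, was at 20.0, 15.6 and 27.9 against 4.08, 7.73 and 4.75 (1.77, adjusted p = 0.00045). Itgb8, the integrin chain that activates TGF-β, rose by 1.29 (adjusted p = 0.003).

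In the TNF superfamily, 7 of 24 fell (29.2%, against 10.9% of all genes) and 4 rose (16.7%, against 9.69%). The ligands Tnf, Lta and Tnfsf4 had the largest falls, with Tnf at 34.7, 31.5 and 14.8 against 118, 109 and 118 (−2.14, 95% interval −2.68 to −1.59, adjusted p = 0.00022) and Tnfsf4, the OX40 ligand, at 4.44, 4.27 and 12.2 against 17.9, 18.1 and 15.4 (−1.32, adjusted p = 0.013). Replicate 3 was the low tethered library for Tnf and the high one for Tnfsf4, and the changes without it were −1.77 and −1.76. Tnfsf14, the ligand LIGHT, fell by 0.74 (adjusted p = 0.01). Tnfrsf18, GITR, one of the most abundant receptors of Tregs, was at 1844, 1707 and 2187 against 2763, 2994 and 2602 (−0.55, adjusted p = 0.011, and 0.051 without EV+IL-2 replicate 2). The receptors Tnfrsf14 and Cd27 rose by 0.9 (adjusted p = 0.002) and 0.6 (0.0024).

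Of 32 genes of resting and central T cells, 11 rose (34.4%, where 9.69% of all genes rose), 2 fell and 19 did not pass, with a median change of 0.21. Rflnb, a regulator of filamins, was at 19.1, 24.6 and 24.1 in 1G12t, at 3.15, 3.54 and 3.11 in EV+IL-2 and at 25.1, 24 and 24.1 in EV no IL-2. The EV+IL-2 libraries alone were low (2.46, 95% interval 2.22 to 2.69, adjusted p = 6.3e-07). Tcf7, the factor TCF1 of central memory cells, was at 146, 125 and 149 against 53.6, 34.5 and 55 (1.56, 95% interval 1.06 to 2.06, adjusted p = 0.00095). Bach2, a repressor of effector genes, was at 28.2, 29.1 and 33.2 against 18, 15.2 and 19.4 (0.75, adjusted p = 0.0035). The 2 that fell were Ly6c1 (−1.27, adjusted p = 0.004) and Tob2, an antiproliferative factor (−0.72, 0.00077).

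Of 28 homing and adhesion receptors, 10 rose (35.7%, against 9.69% of all genes), 2 fell and 16 did not pass (median 0.18). Without EV+IL-2 replicate 1 or 2, or 1G12t replicate 2 or 3, 1 fell. Cxcr6, a receptor of tissue-resident T cells, was at 22.5, 16.5 and 23.5 in 1G12t, at 4.29, 4.12 and 4.74 in EV+IL-2 and at 15.8, 16 and 15.5 in EV no IL-2 (2.01, 95% interval 1.74 to 2.27, adjusted p = 3.7e-06). Cxcr4, which responds to the marrow and stromal chemokine CXCL12, was at 29.6, 34.4 and 38.8 against 9.88, 8.61 and 9.37 (1.77, 95% interval 1.38 to 2.16, adjusted p = 8.3e-05). Cxcr5, the follicle receptor, rose by 1.39 (adjusted p = 0.0018), Itga4, an integrin chain, by 1.21 (0.0014) and Ccr6 by 1 (0.012). For Ccr6 the tethered libraries lay at 73.5, 78.8 and 39.1, and without replicate 3 the change was 1.31. Itgb3 fell by 1.06 (adjusted p = 0.00017).

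Transcription factors of lineage and activation included some of the largest rises. Of 30 tested, 8 rose (26.7%, against 9.69% of all genes) and 3 fell (10%, close to the 10.9% of all genes). Without EV+IL-2 replicate 2 or 3, 5 rose, and without 1G12t replicate 3, 5 fell. The mean log2 level of this list, minus the EV+IL-2 mean, was 0.22, 0.26 and 0.65 in 1G12t replicates 1, 2 and 3. Nr4a1 and Egr2 are induced by antigen receptor signals. Nr4a1 was at 22.2, 21.6 and 40.6 in 1G12t, at 5.33, 6.23 and 5.29 in EV+IL-2 and at 11.8, 10.3 and 13.8 in EV no IL-2 (2.08, 95% interval 1.63 to 2.54, adjusted p = 7.7e-05). Replicate 3 stood above both other tethered libraries, and without it the change was 1.79. Egr2 was at 8.73, 9.74 and 12.1, at 1.03, 1.22 and 0.738 and at 4.44, 4.79 and 6.05 in the same order of groups (2.48, 95% interval 2.11 to 2.86, adjusted p = 7.7e-06). For both genes the tethered libraries lay above all EV no IL-2 libraries too, by 1.12 and 0.87 log2 units, but these differences did not pass (adjusted p = 0.52 and 0.54). Bcl6, the follicular factor, rose by 1.42 (adjusted p = 5.4e-05). Batf, an AP-1 factor of effector Tregs, was at 114, 104 and 108 against 177, 179 and 176 (−0.7, 95% interval −0.95 to −0.45, adjusted p = 0.0018), and Runx3 fell by 0.5 (0.0015).

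T cell receptor and PI3K genes were mostly not called. Of 29 genes of the receptor complex and its proximal signaling, 5 rose (17.2%, against 9.69% of all genes) and 2 fell (6.9%, below the 10.9% of all genes). Only 1 fell without replicate 1 or 2 of EV+IL-2 or replicate 2 or 3 of 1G12t. The number that rose was 2 without EV+IL-2 replicate 1 or 2 or 1G12t replicate 2, 3 without 1G12t replicate 3, and 8 with TPM as deposited or quantile normalization. Cd5, a damper of receptor signals, was at 365, 388 and 392 against 279.9, 290.1 and 258 (0.47, adjusted p = 0.0012) and Cd28, the costimulatory receptor, at 145, 151 and 129.7 against 101, 102 and 104 (0.46, adjusted p = 0.0036). Txk, a kinase of the Tec family, fell by 1.07 (adjusted p = 0.002). Of 34 genes of the PI3K, AKT and mTOR branch, 3 rose (8.82%) and 2 fell (5.88%), both below the shares of all genes. The numbers were 1 and 1 without EV+IL-2 replicate 1, and 1 gene rose without EV+IL-2 replicate 2. The largest were Phlpp1, a phosphatase that turns AKT off (1.07, adjusted p = 0.0015), and Sesn2, a leucine sensor that restrains mTORC1.

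The BCL2 family split by member. Of 16 tested, 4 fell (25%, against 10.9% of all genes) and 3 rose (18.8%, against 9.69%). Bax, a killer member, was at 467, 449 and 578 against 749, 848 and 748 (−0.66, 95% interval −0.98 to −0.34, adjusted p = 0.0096). Bnip3 fell by 0.7 (adjusted p = 0.0052) and Bcl2l1, the protector BCL-XL, by 0.33 (0.0045). Bcl2a1d and Bcl2a1b, protective A1 genes, were at 10.3, 11 and 14.5 against 2.81, 2.9 and 2.39 (1.8, adjusted p = 3e-05) and at 49, 59.8 and 67.7 against 21.1, 22.9 and 21.9 (1.37, adjusted p = 0.00021). They are near-identical copies, so reads may be split between them. Of 23 caspases, their inhibitors and necroptosis genes, 7 fell (30.4%) and 0 rose. Among those that fell were Mlkl, the necroptosis effector (−0.99, adjusted p = 0.0025), its kinase Ripk3 (−0.76, 0.0016) and Casp8, which starts death receptor apoptosis (−0.46, 0.0061).

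Of 8787 protein-coding genes that averaged at least 5 TPM, 1177 were called lower and 625 higher with no overlap between the 2 groups of libraries. Over all genes tested, 20.6% were called and 43.2% did not overlap. The 10 largest falls held Gzmb, Ifitm1, Thy1, Birc5, Ccna2, Ifitm3, Ccnb2 and Ube2c, described above, with Hba-a1 and Myl10. Hba-a1, a globin, was at 0.965, 0.549 and 1.36 against 23.8, 16.7 and 14.2 and at 0.904, 0.439 and 0.641 in EV no IL-2 (−3.29, adjusted p = 1.6e-05), and its copy Hba-a2 fell as well (−3.44, adjusted p = 1.1e-05). The average of Hba-a1 reached 5 TPM, and that of Hba-a2 1 TPM, only through the EV+IL-2 libraries. Their low level in 1G12t was therefore favoured by the selection. Gata1, an erythroid factor, was at 67.8, 57.4 and 39.9 against 161, 165 and 143 (−1.52, adjusted p = 0.00021). The 10 erythroid markers summed to 46.2 to 72.6 in 1G12t, 168 to 201 in EV+IL-2 and 56.8 to 73.2 in EV no IL-2, most of it Gata1 in each group, and the part of other cells in this was not tested. Epor, the erythropoietin receptor, rose by 0.86 (adjusted p = 0.018), a call lost without replicate 2 or 3 of either group (up to 0.06) and under quantile normalization (0.29). Myl10, a myosin light chain, was at 5.4, 3.7 and 1.12 against 40.9, 37.7 and 35.4 (−3.28, adjusted p = 0.00011). Of the 3991 tested genes of other types, such as receptor gene segments and noncoding RNAs, 143 fell and 80 rose by the same rule. Tcrg-C2 and Trgv2, segments of the γ chain of the other T cell receptor, were at 1.69, 1.46 and 5.73 against 39.1, 36.5 and 31.6 (−3.37, adjusted p = 3.9e-05) and at 2.2, 2.1 and 4.24 against 27.4, 30.3 and 27.1 (−2.97, adjusted p = 2.6e-05). Traj28, a joining segment of the α chain, was listed at 0 in all 1G12t and EV no IL-2 libraries and at 31.8, 22.1 and 19 in EV+IL-2 (adjusted p = 0.042), a call lost without any 1 of the 6 libraries (up to 0.12). It thus passed the filter on average TPM with no level in the tethered libraries, and its low level there was favoured by the selection.

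The 10 largest rises were Il2, Rgs16, Egr2 and 7 predicted genes of one repeat family. Rgs16, which shortens chemokine receptor signals, was at 19.9, 24.8 and 31.3 against 3.81, 3.49 and 3.09 and at 21.1, 16 and 16.7 in EV no IL-2 (2.54, 95% interval 2.07 to 3.01, adjusted p = 2.5e-05). The predicted genes Gm10717, Gm10718, Gm10719, Gm10722, Gm10800, Gm10801 and Gm21738 are near-identical copies whose reads cannot be assigned with confidence. Gm10801 was at 4223, 1569 and 3532 against 90.0, 95.5 and 298 and at 1377, 1253 and 1835 in EV no IL-2 (4.37, 95% interval 3.21 to 5.54, adjusted p = 0.00028). The copies Gm10800, Gm10801, Gm10717 and Gm21738 together took 0.47% to 1.1% of all TPM in 1G12t and 0.0401% to 0.0991% in EV+IL-2, with 0.396% to 0.563% in EV no IL-2. The 1G12t libraries also had more genes above 0, and what part this has in the rise was not tested.

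EV cells without IL-2 give the level of each gene with neither the tether nor the cytokine. Between 1G12t and EV no IL-2, 3 genes were called (0.0199%), Il2, Thy1 and the predicted miRNA gene Gm24155, the last named after its values were seen, while 1059 had an unadjusted p under 0.05. Gm24155 was listed at 0 in the 9 other libraries and at 6.76, 6.21 and 3.71 TPM in 1G12t. Between EV no IL-2 and EV+IL-2, 2001 genes were called (13.3%), 772 higher and 1229 lower without IL-2. These comparisons share libraries with the one above, so their values are only set side by side. For mitosis the median change was −1.85 for 1G12t and −1.97 for EV no IL-2, each against EV+IL-2, and 0.098 between 1G12t and EV no IL-2. For IL-2 induced genes the same medians were −0.47, −0.44 and −0.00021. For interferon-stimulated genes they were −0.41, −0.4 and 0.023, and for quiescence genes 0.21, 0.3 and −0.063. For the cytoplasmic ribosomal proteins they were −0.42, −0.37 and −0.047.

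**Figure D4:**
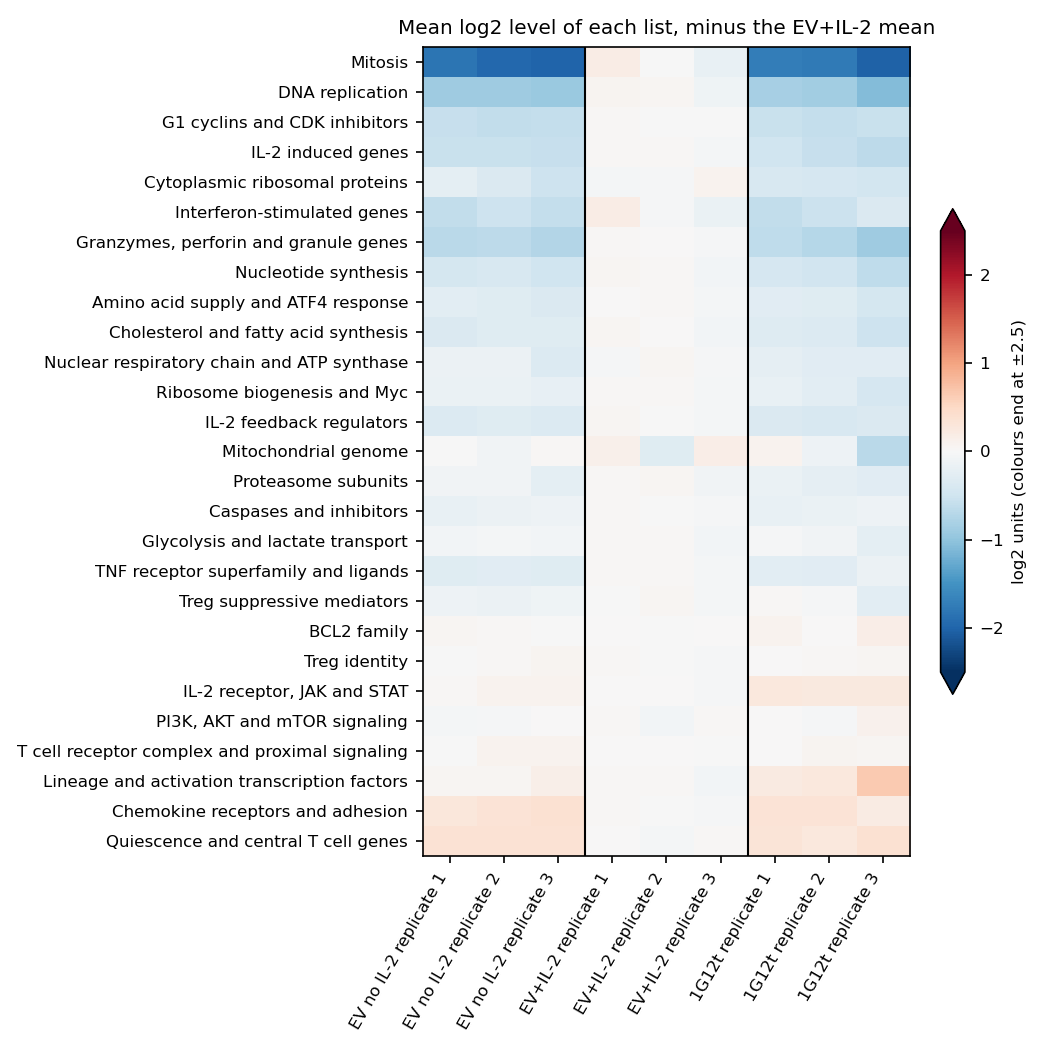
Colours give the mean log2 level of each of 27 lists in each library of EV no IL-2, EV+IL-2 and 1G12t, as a difference from the EV+IL-2 mean. The mitosis list lies at −1.83 to −2 in EV no IL-2 and at −1.74 to −2.03 in 1G12t, and 1G12t replicate 3 is lowest for DNA replication (−1.08) and for the mitochondrial genome (−0.68).

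Single cultures touched some of these values. In 1G12t replicate 3, 40 protein-coding genes that averaged at least 5 TPM lay more than 1 log2 unit below the mean of the other 2 tethered libraries, themselves within 0.5 of each other, and 31 lay above. Of each set 13 were called in the comparison, where 20.6% of all genes tested were called. Lag3, Myl10, Tnf and Spc24 were among the low ones, and Ifitm1, Ifitm2 and Tnfsf4 among the high ones. The farthest were Fos, 3.74 above, and Hmga1b, at −3.43, neither of them called. Jun, also not called, lay 1.71 above. Without 1G12t replicate 3, 1110 genes rose and 1245 fell. Without 1G12t replicate 2, which had 78 genes beyond 1 log2 unit, 1073 rose and 1221 fell. Without EV+IL-2 replicate 2, the library with 102 such genes, 873 rose and 1061 fell, and without EV+IL-2 replicate 1, which had 5, 844 rose and 1091 fell.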

How the data were processed

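RNA was amplified as cDNA from an oligo-dT primer and sequenced as 50-base pairs. The deposited table gives TPM, which the authors made with cutadapt 1.18, STAR 2.5.3 and RSEM 1.3.0, and their tests used DESeq2 1.26, per the submitters' processing notes. Counts were not used here, so the depth per library is unknown. TPM were divided by a median-of-ratios factor per library, 1 was added and log2 taken. limma 3.58.1 in R 4.3.3 (Python 3.11.15 and matplotlib 3.10.9 for figures and promoter windows) was fitted to all 12 libraries with 1 mean per group and a trended prior, over the 15043 genes that averaged at least 1 TPM, with Benjamini-Hochberg adjustment. The test was checked on simulated data.

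The replicate number marks a shared sort per the labels, so it pairs the libraries. Deviations from the group means correlated by 0.0409 on average between libraries of the same number and by −0.0205 between others, and between the 2 groups compared by 0.1 (0.049 to 0.155) and −0.0501. Unless named as blocked, the p-values and intervals in the Results come from the fit that leaves this pairing out. The fit with the number as a block was an alternative. With the block, 60 cytoplasmic ribosomal proteins fell, where 69 did without it. In the same fit 6 transcription factors of lineage and activation rose, where 8 did, and 15 genes of nucleotide synthesis fell, where 12 did. Samples were grouped from the labels. The labels give lymph nodes as the source, where the study's methods add spleens.

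The genes and lists were chosen with earlier results of these data known. Named were the 10 protein-coding genes with the largest called change each way among those that averaged at least 5 TPM and whose groups did not overlap, with up to 3 of other types, a fixed set around the IL-2 receptor, Foxp3 and the SOCS family, and up to 5 called and 3 uncalled members of each list. Some genes that this rule names are not reported here. Gene types came from GENCODE M21, which held 53569 of 55228 symbols, and promoter windows from RefSeq on GRCm38.p6, with 9334 of the tested genes matched by symbol. Reads of the construct share the symbols Il2, Il2rb and Thy1 with the cells' own genes. Genes of a near-identical family, overlapping genes and antisense genes are uncertain.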

Additional observations from a re-analysis of the deposited data

How the results depend on the processing

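Of 141 genes given alternatives, 133 were called, and 122 of these kept the call and direction in all 16 alternatives. Another 11 lost the call in at least 1, and 0 turned. Of the 8 not called, 4 changed sign: Foxp3 (0.085 with TPM as deposited and 0.24 under quantile normalization), Il2rg (0.017 under quantile normalization), Socs7 (−0.14 under quantile normalization, −0.080 without EV+IL-2 replicate 2 and −0.11 without 1G12t replicate 3) and Ikzf2 (0.029 without EV+IL-2 replicate 3 and 0.036 without 1G12t replicate 1). Jak1 and Ctla4 were the 2 not called that passed in an alternative. Without 1 library, Ikzf2 ranged from −0.45 to 0.036 and Socs7 from −0.11 to 0.20. With no filter on low TPM, 14842 genes were called, 12969 of them higher, and the study's threshold gave 10122 higher. With a mean TPM of at least 5, fewer genes were tested and 1926 were called, 659 higher, with 664 higher by the study's threshold. Without 1 library of the 6, the calls numbered 1934 to 2552, with 844 to 1179 higher and 1061 to 1373 lower, in fits with fewer samples. By the study's threshold these were 1012 to 1249 higher and 1203 to 1425 lower. With the replicate block, 1507 genes were higher and 1639 lower, 2860 of them called in both fits, and of the 141 genes 3 changed side of the threshold. TPM keep no depth, so values near 1 TPM cannot be given a counting error.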
